A study of Mus musculus with 6 samples.

Results

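The genes described are 31 genes of cholesterol and fatty acid synthesis, chosen by symbol for their role in these pathways and found as 31 of the 34590 genes listed in the counts. They fall into 14 enzymes that build cholesterol, 6 genes that sense or carry sterols, and 11 genes of fatty acid synthesis. RNA came from skin biopsies of 3 Tnip1-/- mice and 3 Tnip1+/+ mice, all on the C57BL/6 background and all given imiquimod on the skin for 2 days. Imiquimod activates Toll-like receptor 7 and causes a psoriasis-like inflammation in mouse skin. Tnip1 encodes a protein that binds ubiquitin chains and works with A20 to limit inflammatory signalling. Every mouse in both groups carried the treatment, and untreated skin was not analysed here. The labels give neither the deleted part of Tnip1 nor the age or sex of the mice. The question was how the 2 pathways differ between imiquimod-treated skin without and with Tnip1.

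Cholesterol is made from acetyl-CoA by way of mevalonate, isoprenoid units and squalene. When sterols are scarce, the protein SCAP escorts the transcription factor SREBP2 from the endoplasmic reticulum to be cut and released, while the INSIG proteins hold the pair back when sterols are plentiful. SREBP1, from the gene Srebf1, acts more on fatty acid genes, which build palmitate from acetyl-CoA and then lengthen it and add double bonds. In skin both pathways feed the lipid barrier made by keratinocytes and the sebum made by sebaceous glands, and fat cells of the lower skin make and store fatty acids as well.

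Libraries held 19529970 to 25864730 gene counts in Tnip1-/- skin and 24701074 to 31005554 in Tnip1+/+ skin. Levels below are CPM, the counts scaled to library size, here after TMM scaling, and values are given for replicates 1, 2 and 3 in that order. Genotypes were compared by the quasi-likelihood test of edgeR. Its p-values were adjusted by the method of Benjamini and Hochberg over the 16691 genes tested, and genes with an adjusted p under 0.05 are those named as called. By this rule 45.1% of all genes tested were called, 22.3% higher and 22.7% lower in Tnip1-/- skin, and the libraries of the 2 groups did not overlap for 59.8% of genes. Counts of members called have to be read against these shares. All 31 members passed the filter on low counts.

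Tnip1 itself had 47, 37 and 35 counts in Tnip1-/- libraries, against 938, 739 and 703 counts in Tnip1+/+ libraries, a log2 fold change of -3.87 (SE 0.16, adjusted p = 5.87e-05). Some libraries stood apart in other cell types. Fat cell markers were low in Tnip1-/- replicate 2, where Adipoq, the gene of adiponectin, had 0.593 CPM, against 116 and 91.5 CPM in Tnip1-/- replicates 1 and 3 and 222, 435 and 233 CPM in Tnip1+/+ libraries. Others of the list were less reduced there, Car3 having 138 CPM, against 653 and 856 CPM in Tnip1-/- replicates 1 and 3 and 1417, 4231 and 2050 CPM in Tnip1+/+ libraries. Tnip1+/+ replicate 1 was high in fibroblast collagen, with 2354 CPM of Col1a1, against 180 and 317 CPM in Tnip1+/+ replicates 2 and 3 and 537, 420 and 368 CPM in Tnip1-/- libraries. Tnip1+/+ replicate 2 had the highest sums of fat and skeletal muscle markers. Tnip1+/+ replicate 3 held 173 counts of the hair follicle gene Shh, against 11 and 9 counts in Tnip1+/+ replicates 1 and 2 and 0, 1 and 0 counts in Tnip1-/- libraries. The identifiers of the libraries begin with 1 prefix for all Tnip1-/- libraries and another for all Tnip1+/+ libraries, so a difference in handling that follows the prefix cannot be told apart from genotype.

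Of the 31 members, 11 were called higher and 5 lower in Tnip1-/- skin (51.6%, against 45.1% of all genes tested). The calls were distributed differently in the 2 pathways. Among the 14 sterol enzymes 7 were higher and 0 lower, with a median log2 fold change of 0.73. Among the 11 fatty acid genes 1 was higher and 4 lower, with a median of -0.48. Of all genes tested, 22.3% were called higher and 22.7% lower. The median over all genes tested was -0.04, with a 10th percentile of -1.26 and a 90th percentile of 1.01. The medians of the 2 pathways differed by 1.21 on the log2 scale, given as a description. The difference was 0.88 without Tnip1-/- replicate 2 and 0.82 without Tnip1+/+ replicate 2, the lowest values over the alternatives run.

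**Figure D1:**
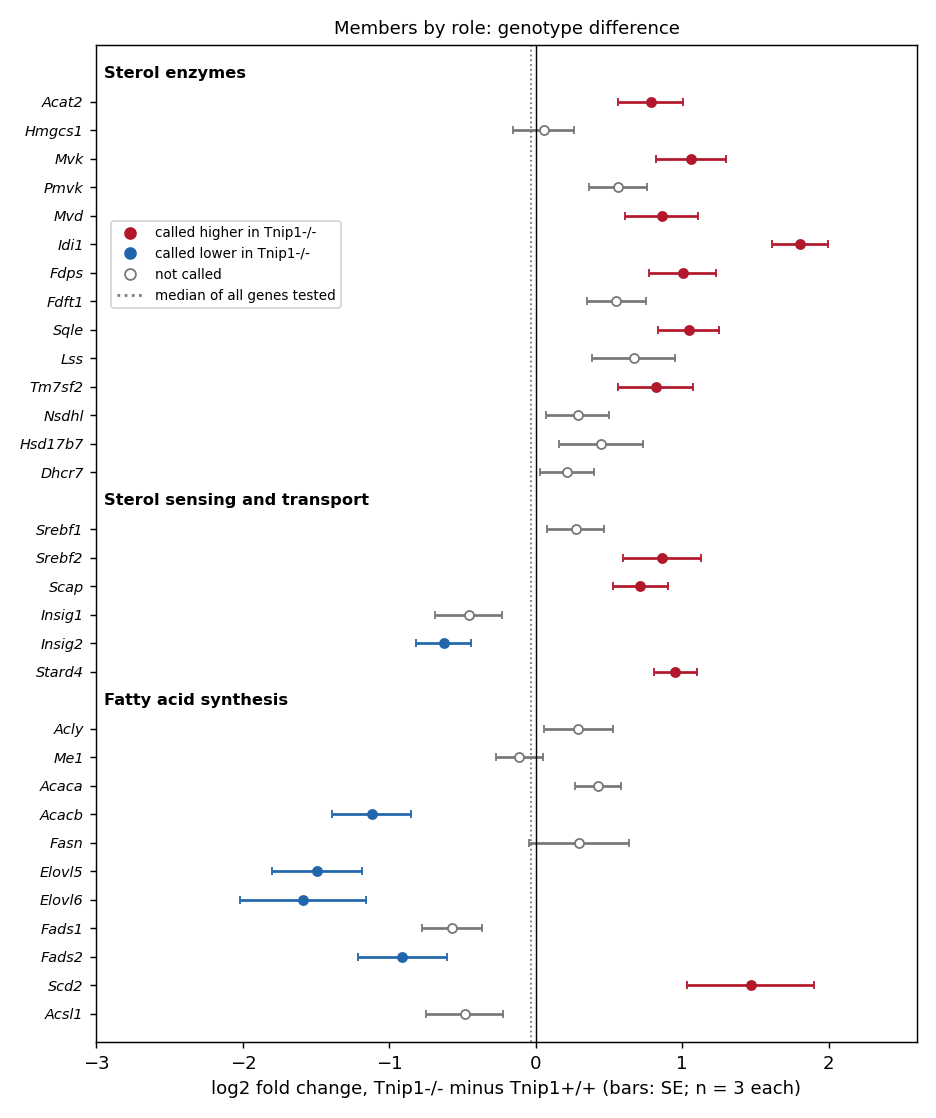
Log2 fold change of each member (x axis, Tnip1-/- minus Tnip1+/+; bars are SE, n = 3 mice per genotype), grouped by role, with filled points for genes called at an adjusted p under 0.05 and a dotted line at the median of all genes tested. The 14 sterol enzymes all lie right of 0 (Hmgcs1 lies left of it with upper-quartile factors or library totals), whereas Acacb, Elovl5, Elovl6 and Fads2 lie to its left.

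Among the sterol enzymes, Acat2, Mvk, Mvd, Idi1, Fdps, Sqle and Tm7sf2 were called higher in Tnip1-/- skin, and the other 7 did not pass the test. Their summed level was 1520, 2443 and 1846 CPM in Tnip1-/- libraries, against 1374, 977 and 1259 CPM in Tnip1+/+ libraries, and the groups did not overlap. All 14 log2 fold changes were above 0, though that of Hmgcs1 was not with upper-quartile factors or library totals. For 9 of the 14 every Tnip1-/- library lay above every Tnip1+/+ library. Over all genes tested, the groups did not overlap for 59.8%, counting either direction. The share called (50%) was close to that of all genes tested (45.1%), while the share called higher was 7 of 14, against 22.3% of all genes tested. In bulk skin, a change in the number of cells that express a gene and a change in RNA per cell cannot be told apart.

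Idi1, which makes the isoprenoid unit dimethylallyl diphosphate by isomerising isopentenyl diphosphate, differed most among the 14. It had 239, 367 and 267 CPM in Tnip1-/- libraries, against 91.7, 71.4 and 86.3 CPM in Tnip1+/+ libraries. The lowest Tnip1-/- library was far above the highest Tnip1+/+ library, and the log2 fold change was 1.81 (SE 0.19, adjusted p = 0.00104). The count of Idi1 covers an exon stretch of 323 bases shared with an antisense gene, Gm48574, and the strand option of the counting is not given in the sources used here. Exons of Hmgcs1, Scap, Lss and Srebf1 likewise overlap antisense genes (by 458, 221, 150 and 109 bases), and Fdps overlaps Gm43738 on its own strand (by 197 bases).

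Calls on either side of that step went the same way. Mvk, mevalonate kinase, had 46.0, 66.5 and 59.6 CPM in Tnip1-/- libraries, against 34.7, 19.3 and 28.6 CPM in Tnip1+/+ libraries (log2 1.06, SE 0.24, adjusted p = 0.0116). Fdps, which joins isoprenoid units into farnesyl diphosphate, had 153, 265 and 218 CPM in Tnip1-/- libraries, against 125, 86.5 and 105 CPM in Tnip1+/+ libraries (log2 1.00, SE 0.23, adjusted p = 0.0120). Sqle, the squalene epoxidase that acts before ring closure, had 205, 319 and 232 CPM in Tnip1-/- libraries, against 142, 97.9 and 127 CPM in Tnip1+/+ libraries (log2 1.05, SE 0.21, adjusted p = 0.00776). For Idi1, Mvk, Fdps and Sqle the groups did not overlap, and these 4 were called under all 15 alternatives run.

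The remaining 3 calls were less firm. Acat2, the thiolase that makes acetoacetyl-CoA at the start of the pathway, had 93.0, 148 and 121 CPM in Tnip1-/- libraries, against 80.2, 52.4 and 77.6 CPM in Tnip1+/+ libraries (log2 0.78, SE 0.22, adjusted p = 0.0265). Mvd, the decarboxylase that yields isopentenyl diphosphate, had 47.2, 65.7 and 48.8 CPM in Tnip1-/- libraries, against 35.2, 19.6 and 34.4 CPM in Tnip1+/+ libraries (log2 0.86, SE 0.25, adjusted p = 0.0287). Tm7sf2, a sterol C14 reductase, had 10.3, 14.3 and 13.4 CPM in Tnip1-/- libraries, against 8.40, 4.72 and 8.40 CPM in Tnip1+/+ libraries (log2 0.82, SE 0.26, adjusted p = 0.0372). Their groups did not overlap, but without Tnip1-/- replicate 2 the adjusted p was 0.0775 for Acat2, 0.0861 for Mvd and 0.105 for Tm7sf2, and without Tnip1-/- replicate 3 it was 0.0628, 0.0507 and 0.0922 for the same genes. Acat2 also missed the threshold without Tnip1+/+ replicate 2 (adjusted p = 0.0583). Acat2 has a close copy, Acat3, and how the counting treated reads that match both genes is not given.

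The other 7 enzymes did not pass the test. Pmvk, phosphomevalonate kinase (log2 0.56, SE 0.20, adjusted p = 0.0538), and Fdft1, squalene synthase (log2 0.55, SE 0.20, adjusted p = 0.0606), had groups that did not overlap and were called without Tnip1-/- replicate 1 (adjusted p = 0.036 and 0.0207). Fdft1 shares 774 exon bases with Ctsb on the opposite strand, so its counts are uncertain. Lss, which folds squalene epoxide into lanosterol, had a log2 fold change of 0.67 (SE 0.29, adjusted p = 0.0931), and of 0.92 without Tnip1+/+ replicate 1 (adjusted p = 0.0495). Hsd17b7, Nsdhl and Dhcr7, of the late steps that turn lanosterol into cholesterol, had log2 fold changes of 0.44, 0.29 and 0.22 (adjusted p = 0.235, 0.300 and 0.364), with overlapping groups.

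Hmgcs1, the HMG-CoA synthase early in the pathway, stood out by its small difference. It had 291, 488 and 346 CPM in Tnip1-/- libraries, against 400, 317 and 368 CPM in Tnip1+/+ libraries, so the groups overlapped throughout (log2 0.05, SE 0.21, adjusted p = 0.849). The sign turned to -0.17 without Tnip1-/- replicate 2 and to -0.04 without Tnip1+/+ replicate 2, and also with upper-quartile factors (-0.03) or library totals (-0.10). Hmgcs1 supplied 19.1%, 20.0% and 18.8% of the summed sterol enzyme CPM in Tnip1-/- libraries, against 29.1%, 32.4% and 29.2% in Tnip1+/+ libraries.

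**Figure D2:**
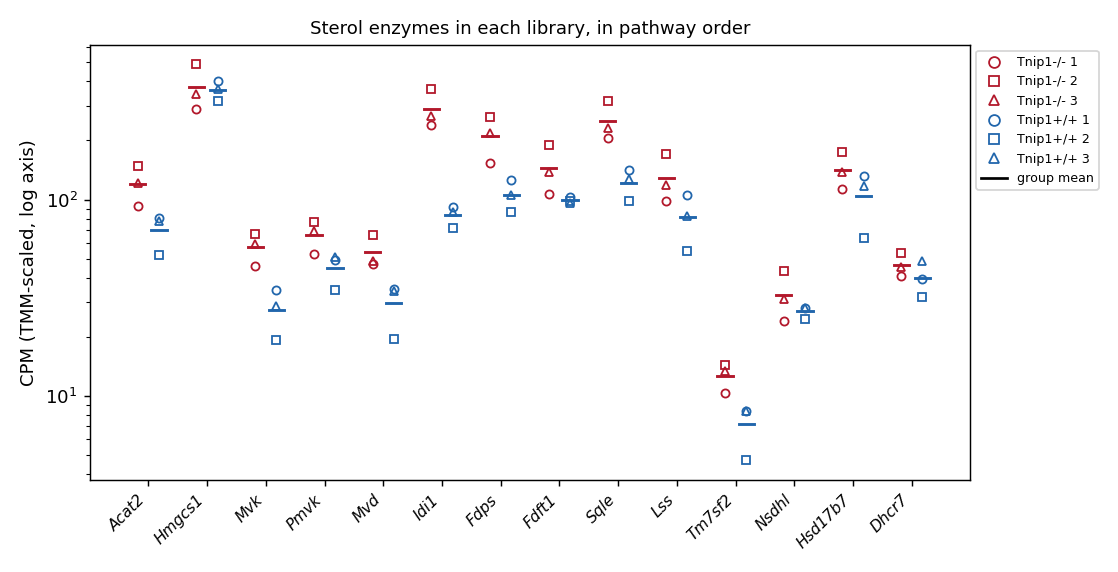
CPM of the 14 sterol enzymes (log y axis) in each of the 3 Tnip1-/- libraries (left of each pair) and 3 Tnip1+/+ libraries (right), in pathway order, with lines at group means. Tnip1-/- replicate 2 (square) is the highest library for all 14 genes, and Tnip1+/+ replicate 2 (square) is the lowest for 11.

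The enzymes also varied together within a genotype. Tnip1-/- replicate 2 was the highest of the 6 libraries and Tnip1-/- replicate 1 the lowest of the 3 Tnip1-/- libraries for all 14 enzymes. In Tnip1+/+ skin, replicate 2 was the lowest of the 3 for 13 enzymes and replicate 1 the highest for 11. Both extreme libraries were also extreme in fat cell markers, whose sum was 2227, 300 and 2202 CPM in Tnip1-/- libraries, against 4176, 9043 and 5182 CPM in Tnip1+/+ libraries. The part of this difference in the sterol values was not tested. Without Tnip1-/- replicate 2, 4 of the 14 enzymes were called higher, 0 lower, and the median log2 fold change was 0.54. Over all genes, 5471 were called without that library, against 7525 with all 6 libraries. Without Tnip1-/- replicate 3, 4 were called higher as well.

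Per length of merged exons, Fdps was the most abundant of the 31 members in Tnip1-/- skin, at 146 ± 38.7 CPM per kb, against 72.7 ± 13.4 CPM per kb in Tnip1+/+ skin (SD, n = 3 each). Hmgcs1 followed with 108 ± 29.2 CPM per kb in Tnip1-/- skin, against 104 ± 12.1 CPM per kb in Tnip1+/+ skin. Idi1 had 96.1 ± 22.3 CPM per kb in Tnip1-/- skin and 27.5 ± 3.47 CPM per kb in Tnip1+/+ skin. In each Tnip1-/- library Fdps stood above Hmgcs1 and Hmgcs1 above Idi1, but the means of Hmgcs1 and Idi1 differed by less than the SD of either. Tm7sf2 was the lowest sterol enzyme in both groups, with 7.48 ± 1.24 CPM per kb in Tnip1-/- skin and 4.24 ± 1.25 CPM per kb in Tnip1+/+ skin.

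Promoters of sterol genes in mammals are known for a sterol regulatory element, bound by SREBP, beside a CCAAT box, bound by NF-Y. Promoter sequences from RefSeq (GRCm38.p6) were found for 25 of the 31 members, some with more than 1 start. The 250 bases before each start were searched on both strands. CCAAT was present in 10 of 14 sterol enzyme promoters (71.4%), belonging to 10 of 11 genes, and in 5 of 11 fatty acid promoters (45.5%), against 33.8% of all 32851 promoters. The sterol element core TCACNCCAC was present in 1 sterol enzyme promoter, that of Hmgcs1, and 1 fatty acid promoter, that of Acsl1, against 1.05% of all promoters. The E-box CACGTG was present in 2 of 14 sterol enzyme promoters and 1 of 11 fatty acid promoters, against 6.02% of all.

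Stretches of 4 promoters are shown because these genes span the range of responses. Idi1 (chr13:8885486-8885605) and Mvk (chr5:114444069-114444268) were called higher, Hmgcs1 (chr13:119690171-119690350) did not pass the test, and Elovl6 (chr3:129532266-129532385), described below, was called lower. All 4 lie on the plus strand and are written 5′ to 3′, with capitals marking CCAAT, its reverse complement ATTGG, or the sterol element core.
Idi1: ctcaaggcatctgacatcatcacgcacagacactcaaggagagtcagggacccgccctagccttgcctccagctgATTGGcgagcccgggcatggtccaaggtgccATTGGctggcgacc
Mvk: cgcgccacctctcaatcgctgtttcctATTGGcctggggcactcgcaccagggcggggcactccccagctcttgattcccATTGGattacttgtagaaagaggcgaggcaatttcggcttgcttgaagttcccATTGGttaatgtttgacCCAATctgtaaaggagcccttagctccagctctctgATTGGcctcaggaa
Hmgcs1: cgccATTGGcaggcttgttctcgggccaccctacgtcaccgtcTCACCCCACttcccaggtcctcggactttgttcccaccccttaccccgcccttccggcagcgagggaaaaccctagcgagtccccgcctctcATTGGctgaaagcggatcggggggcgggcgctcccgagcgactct
Elovl6: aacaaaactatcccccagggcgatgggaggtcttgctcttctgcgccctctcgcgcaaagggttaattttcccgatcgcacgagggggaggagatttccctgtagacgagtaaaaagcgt
Idi1 had 2 reverse CCAAT matches, at -45 and -14 from the start. Mvk had 4 reverse matches, evenly spaced at -173, -120, -67 and -14, and a forward one at -50. In Hmgcs1 the sterol element core at -137 stood between reverse CCAAT matches at -176 and -45, with a further match at -237 outside the stretch shown. Elovl6 had none of the motifs searched in its 250 bases, but other members called lower did. Elovl5 had reverse CCAAT matches at -71 and -17 and an E-box at -161. Acacb had a forward CCAAT match at -87, and Insig2 had CCAAT matches at -136, -46 and -29. No match was recorded for Fads2. A match is a description of these letters and not a site of binding.

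Genes that sense sterols differed in both directions. Of the 6, 3 were called higher and 1 lower in Tnip1-/- skin (66.7% called, against 45.1% of all genes tested). The higher ones were the activating pair Srebf2 and Scap and the carrier Stard4, and the lower one was the restraining gene Insig2.

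Srebf2, the gene of SREBP2, had 75.8, 88.9 and 76.4 CPM in Tnip1-/- libraries, against 60.6, 27.6 and 44.7 CPM in Tnip1+/+ libraries (log2 0.86, SE 0.27, adjusted p = 0.0353). The groups did not overlap, yet the call was lost without Tnip1-/- replicate 1, 2 or 3 (adjusted p = 0.0686, 0.0916 and 0.0684) and without Tnip1+/+ replicate 3 (0.0780). Scap, its escort, had 92.3, 82.9 and 84.0 CPM in Tnip1-/- libraries, against 62.2, 38.2 and 57.5 CPM in Tnip1+/+ libraries (log2 0.72, SE 0.19, adjusted p = 0.0196, and 0.0585 without Tnip1-/- replicate 1). Scap was the 1 gene of the 6 that was highest in Tnip1-/- replicate 1. Stard4, which carries cholesterol between membranes, had 63.7, 83.3 and 80.5 CPM in Tnip1-/- libraries, against 40.1, 43.1 and 34.3 CPM in Tnip1+/+ libraries (log2 0.95, SE 0.15, adjusted p = 0.00335). Its groups were well apart, and Stard4 was called under all 15 alternatives run.

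Insig2 had 38.9, 57.7 and 48.3 CPM in Tnip1-/- libraries, against 78.8, 61.0 and 84.5 CPM in Tnip1+/+ libraries (log2 -0.63, SE 0.19, adjusted p = 0.0301). The groups were separated narrowly, by Tnip1-/- replicate 2 and Tnip1+/+ replicate 2, and the adjusted p was 0.0849 without Tnip1-/- replicate 1, 0.0815 without Tnip1-/- replicate 3, 0.0793 without Tnip1+/+ replicate 1 and 0.0909 without Tnip1+/+ replicate 3. Insig1, itself a known target of SREBP, had 68.0, 112 and 105 CPM in Tnip1-/- libraries, against 112, 117 and 163 CPM in Tnip1+/+ libraries (log2 -0.46, SE 0.23, adjusted p = 0.140). Its Tnip1-/- levels reached those of the lowest Tnip1+/+ library. Srebf1, the gene of SREBP1, had a log2 fold change of 0.27 (SE 0.19, adjusted p = 0.277), with overlapping groups.

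**Figure D3:**
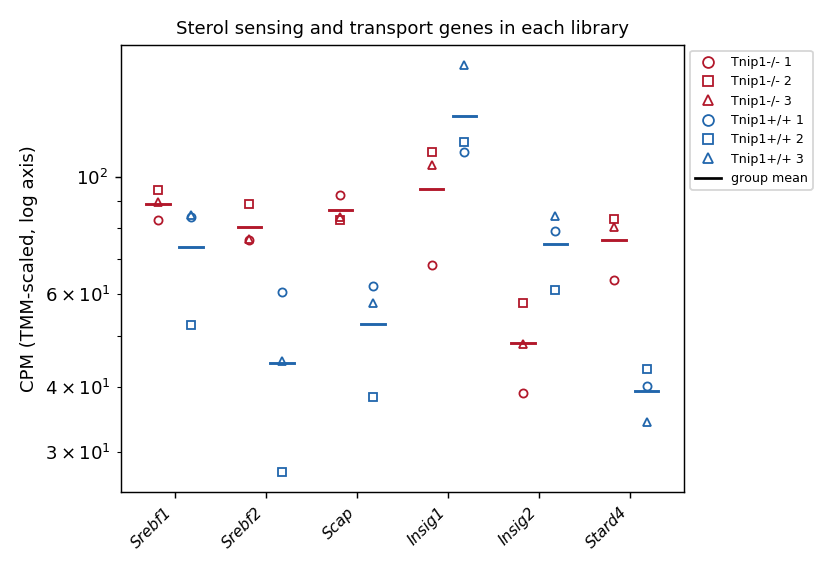
CPM of the 6 sterol sensing and transport genes (log y axis) in each Tnip1-/- library (left of each pair) and Tnip1+/+ library (right), with lines at group means. Srebf2, Scap and Stard4 lie higher in all 3 Tnip1-/- libraries, and Insig2 lies lower in all 3.

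The 2 SREBP genes were set against each other within each library. The log2 ratio of Srebf2 to Srebf1 CPM was -0.13, -0.09 and -0.23 in Tnip1-/- libraries, against -0.47, -0.92 and -0.92 in Tnip1+/+ libraries. The groups did not overlap, and the exact two-sided permutation p of the difference of 0.62 was 0.1, the smallest that 3 against 3 libraries allow (0.2 after adjustment over 6 gene pairs). For Insig1 over Insig2 the difference was 0.17, with overlapping groups (exact permutation p = 0.4).

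Fatty acid genes did not move as a block. Of the 11, the elongases Elovl5 and Elovl6, the desaturase Fads2 and the carboxylase Acacb were called lower and the desaturase Scd2 higher in Tnip1-/- skin, while the other 6 did not pass the test. The share called was 45.5%, against 45.1% of all genes tested. Their summed level was 1978, 2631 and 2616 CPM in Tnip1-/- libraries, against 2571, 2745 and 4018 CPM in Tnip1+/+ libraries, with overlapping groups. Per library, the median over the 11 genes of the log2 difference from the Tnip1+/+ mean was -0.67, -0.27 and -0.04 in Tnip1-/- libraries, against -0.28, -0.19 and 0.35 in Tnip1+/+ libraries, and these overlapped too. Elovl6 supplied 18.1%, 20.9% and 7.19% of that sum in Tnip1-/- libraries, against 31.3%, 32.2% and 40.1% in Tnip1+/+ libraries. Without Elovl6 the sums were 1621, 2080 and 2427 CPM in Tnip1-/- libraries and 1767, 1861 and 2405 CPM in Tnip1+/+ libraries.

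None of Acly, Me1, Acaca and Fasn, which serve the steps up to palmitate, was called. Acly, which makes cytosolic acetyl-CoA from citrate, had a log2 fold change of 0.29 (SE 0.24, adjusted p = 0.341), and Me1, the malic enzyme that supplies NADPH, one of -0.11 (SE 0.16, adjusted p = 0.586). Fasn, fatty acid synthase, had 375, 366 and 684 CPM in Tnip1-/- libraries, against 297, 305 and 559 CPM in Tnip1+/+ libraries. Replicate 3 was high in both groups, and the difference (log2 0.30, SE 0.34, adjusted p = 0.50) turned to -0.05 without Tnip1-/- replicate 3 and grew to 0.67 without Tnip1+/+ replicate 3 (adjusted p = 0.128).

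Of the 2 acetyl-CoA carboxylases, only Acacb was called. Acaca, whose cytosolic enzyme makes malonyl-CoA for synthesis, had 174, 163 and 204 CPM in Tnip1-/- libraries, against 126, 117 and 160 CPM in Tnip1+/+ libraries (log2 0.42, SE 0.16, adjusted p = 0.0615, and 0.0284 without Tnip1+/+ replicate 3). Acacb, whose enzyme sits at mitochondria and restrains fatty acid oxidation, had 60.0, 65.4 and 37.0 CPM in Tnip1-/- libraries, against 136, 82.7 and 135 CPM in Tnip1+/+ libraries. Its groups did not overlap, and the log2 fold change was -1.12 (SE 0.27, adjusted p = 0.0149), a call held under all 15 alternatives run. The log2 ratio of Acaca to Acacb was 1.54, 1.31 and 2.46 in Tnip1-/- libraries, against -0.11, 0.50 and 0.25 in Tnip1+/+ libraries. The difference of 1.56 reached the smallest exact permutation p allowed, 0.1 (0.2 adjusted over 6 pairs).

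The elongases showed the largest decreases among the members. Elovl6, which lengthens palmitate to stearate, had 357, 551 and 188 CPM in Tnip1-/- libraries, against 804, 884 and 1612 CPM in Tnip1+/+ libraries (log2 -1.59, SE 0.43, adjusted p = 0.0229). The groups did not overlap, but replicate 3 was the lowest of 3 in Tnip1-/- skin and the highest of 3 in Tnip1+/+ skin. The adjusted p was 0.0683 without Tnip1-/- replicate 1 and 0.0604 without Tnip1+/+ replicate 3, where the log2 fold change was -1.20. Elovl5, which lengthens polyunsaturated fatty acids, had 86.3, 133 and 59.9 CPM in Tnip1-/- libraries, against 226, 226 and 334 CPM in Tnip1+/+ libraries (log2 -1.49, SE 0.31, adjusted p = 0.00863). Every Tnip1-/- library was well below the lowest Tnip1+/+ library, and Elovl5 was called under all 15 alternatives run. The log2 ratio of Elovl5 to Elovl6 had overlapping groups, with a difference of 0.11 (exact permutation p = 0.6).

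Per length of merged exons, Elovl6 was the most abundant member in Tnip1+/+ skin, and it had 59.6 ± 29.6 CPM per kb in Tnip1-/- skin, against 179 ± 72.6 CPM per kb in Tnip1+/+ skin (SD, n = 3 each). Elovl5 had 33.4 ± 13.3 CPM per kb in Tnip1-/- skin, against 94.1 ± 22.5 CPM per kb in Tnip1+/+ skin. At the low end stood Fads2, with 1.13 ± 0.27 CPM per kb in Tnip1-/- skin and 2.13 ± 0.66 CPM per kb in Tnip1+/+ skin, the lowest member in both groups.

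Of the desaturases of polyunsaturated fatty acids, Fads2 had 2.59, 4.15 and 3.97 CPM in Tnip1-/- libraries, against 4.44, 7.24 and 8.48 CPM in Tnip1+/+ libraries (log2 -0.91, SE 0.30, adjusted p = 0.0453). The groups came close to each other, and the call was lost without any 1 of Tnip1-/- replicates 1, 2 and 3 (adjusted p = 0.125, 0.0731 and 0.0835) or Tnip1+/+ replicates 2 and 3 (0.106 and 0.132). Fads1 had a log2 fold change of -0.57 (SE 0.21, adjusted p = 0.0593), and was called without Tnip1-/- replicate 2 (0.0482) or Tnip1+/+ replicate 1 (0.0413). Acsl1, which couples long-chain fatty acids to CoA, had a log2 fold change of -0.48 (SE 0.26, adjusted p = 0.169).

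Scd2, a desaturase that adds the first double bond to stearate and palmitate, was the 1 fatty acid member called higher. It had 132, 414 and 423 CPM in Tnip1-/- libraries, against 108, 91.1 and 151 CPM in Tnip1+/+ libraries (log2 1.47, SE 0.44, adjusted p = 0.0306). Tnip1-/- replicates 2 and 3 were high, while Tnip1-/- replicate 1 lay within the range of Tnip1+/+ skin. The adjusted p was 0.0801 without Tnip1-/- replicate 2, 0.0852 without Tnip1-/- replicate 3, 0.0793 without Tnip1+/+ replicate 1 and 0.0965 without Tnip1+/+ replicate 2.

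Scd1, the related desaturase abundant in sebaceous glands and not itself a member, went the other way. It had 913, 1384 and 737 CPM in Tnip1-/- libraries, against 2734, 4758 and 5133 CPM in Tnip1+/+ libraries (log2 -2.06, SE 0.34, adjusted p = 0.00399). The log2 ratio of Scd2 to Scd1 was -2.79, -1.74 and -0.80 in Tnip1-/- libraries, against -4.66, -5.71 and -5.09 in Tnip1+/+ libraries. Every Tnip1-/- ratio was above every Tnip1+/+ ratio, with a difference of 3.37 and an exact permutation p of 0.1, the smallest allowed (0.2 adjusted over 6 pairs).

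**Figure D4:**
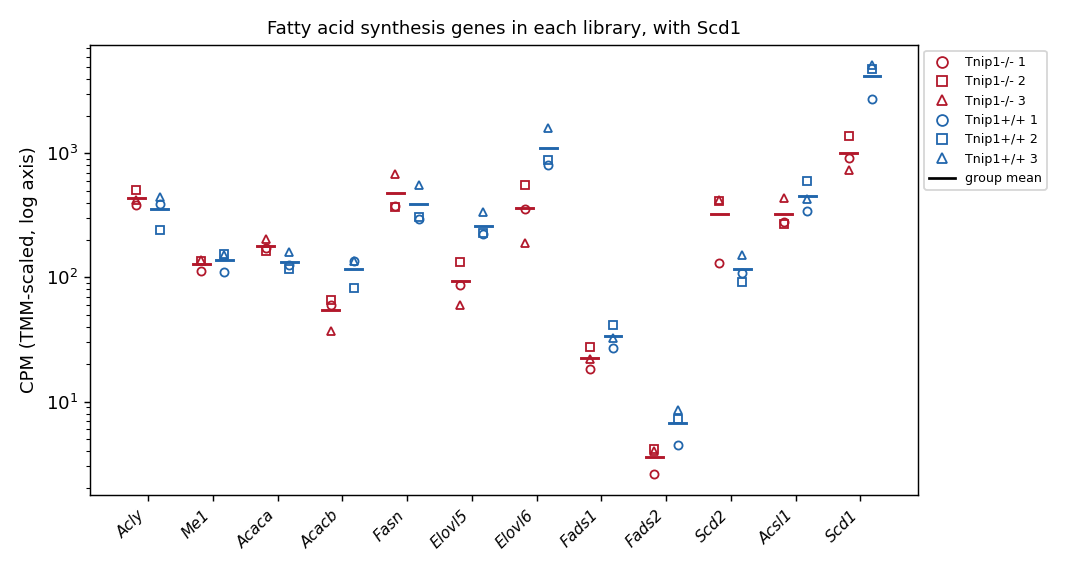
CPM of the 11 fatty acid synthesis genes and of Scd1 (log y axis) in each Tnip1-/- library (left of each pair) and Tnip1+/+ library (right), with lines at group means. Acacb, Elovl5, Elovl6, Fads2 and Scd1 lie lower in all 3 Tnip1-/- libraries, and Scd2 is high in Tnip1-/- replicates 2 and 3.

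The sterol and fatty acid sums were compared within each library. The sum of sterol enzyme CPM divided by that of fatty acid genes was 0.77, 0.93 and 0.71 in Tnip1-/- libraries, against 0.53, 0.36 and 0.31 in Tnip1+/+ libraries. Every Tnip1-/- ratio lay above every Tnip1+/+ ratio, and no test was made of it since it is a score over the members. The separation depended on Elovl6. Without Elovl6 the fatty acid sum was 2427 CPM in Tnip1-/- replicate 3 and 1767 CPM in Tnip1+/+ replicate 1. The sterol sums of these libraries were 1846 and 1374 CPM. The ratio of Tnip1-/- replicate 3 then lay below that of Tnip1+/+ replicate 1, so the groups overlapped.

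Further genes of the pathways were described from lists by role. Of 12 other sterol synthesis genes, 3 were called higher and 2 lower (41.7% called, against 45.1% of all genes tested), with a median log2 fold change of 0.35. Lbr, a lamin B receptor with sterol C14 reductase activity like Tm7sf2, was higher by 0.92 (SE 0.15, adjusted p = 0.00349), and Ebp, a sterol isomerase, by 0.84 (SE 0.15, adjusted p = 0.00464). Mbtps1, the protease that makes the first cut of SREBP, was lower, with 76.6, 74.0 and 75.2 CPM in Tnip1-/- libraries, against 119, 94.8 and 110 CPM in Tnip1+/+ libraries (log2 -0.52, SE 0.11, adjusted p = 0.0104). Ggps1, which draws farnesyl diphosphate off to geranylgeranyl diphosphate, was lower by a log2 value of -0.51 (SE 0.12, adjusted p = 0.0142, and 0.0526 without Tnip1-/- replicate 1).

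Of 19 genes of sterol uptake, storage and export, 3 were higher and 3 lower (31.6% called, against 45.1% of all genes tested), with a median of -0.20. Mylip, a ubiquitin ligase induced by the sterol sensor LXR, was lower, with 23.7, 29.3 and 29.7 CPM in Tnip1-/- libraries, against 48.7, 58.2 and 45.8 CPM in Tnip1+/+ libraries (log2 -0.89, SE 0.15, adjusted p = 0.00401). Abcg1, an exporter that LXR also induces, was higher by 0.76 (SE 0.13, adjusted p = 0.00472), while Apoe, an apolipoprotein, was lower (log2 -1.04, SE 0.23, adjusted p = 0.0108). Lcat, which esterifies cholesterol on lipoproteins, stood at 0.366 to 0.560 CPM in Tnip1-/- libraries and 1.02 to 1.14 CPM in Tnip1+/+ libraries (log2 -1.28, SE 0.29, adjusted p = 0.0118, and 0.0565 without Tnip1-/- replicate 2).

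Of 33 tested genes of other fatty acid and glycerolipid synthesis, 5 were higher and 10 lower (45.5% called, against 45.1% of all genes tested), with a median of -0.33. Scd3, a desaturase of sebaceous glands, had 4.14, 12 and 3.92 CPM in Tnip1-/- libraries, against 167, 96.6 and 117 CPM in Tnip1+/+ libraries (log2 -4.24, SE 0.50, adjusted p = 0.00136). Tecr, which completes each round of elongation, was lower (log2 -1.05, SE 0.15, adjusted p = 0.00261), as was Fads3, a member of the fatty acid desaturase family (log2 -1.10, SE 0.16, adjusted p = 0.00286). Lpin2, a phosphatidate phosphatase of glycerolipid synthesis, went against these, with 123, 117 and 112 CPM in Tnip1-/- libraries, against 35.0, 27.7 and 35.2 CPM in Tnip1+/+ libraries (log2 1.85, SE 0.13, adjusted p = 0.000305). Scd1, Scd3 and Scd2 are close relatives, and how the counting treated reads that match more than 1 of them is not given.

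Markers of lipid-making cells are given beside the fatty acid genes. Of 12 sebaceous gland markers 0 were higher and 6 lower (50% called, against 45.1% of all genes tested), and their sum was 2633, 3720 and 1746 CPM in Tnip1-/- libraries, against 4880, 6495 and 7988 CPM in Tnip1+/+ libraries. Within each genotype the sum had the same order of libraries as Elovl6, with replicate 3 lowest in Tnip1-/- skin and highest in Tnip1+/+ skin. Scd1 supplied 913, 1384 and 737 CPM of the sum in Tnip1-/- libraries, against 2734, 4758 and 5133 CPM in Tnip1+/+ libraries. Without Scd1 the sums of the groups overlapped. In Tnip1+/+ skin replicate 2 was then the lowest, whereas Elovl6 was lowest in replicate 1. Taken gene by gene, 9 of the 12 markers had every Tnip1-/- library below every Tnip1+/+ library, and 0 the reverse. Over all genes tested, the groups did not overlap for 59.8%, counting either direction. The median log2 fold change of the 12 markers was -1.155. Scd1 and Krt79 were the most abundant genes of the list. Krt79, a keratin of sebaceous ducts, did not pass the test, with 901, 1264 and 548 CPM in Tnip1-/- libraries, against 807, 433 and 945 CPM in Tnip1+/+ libraries (log2 0.31, adjusted p = 0.520). No sebaceous marker was at 0 in a whole group. Of 12 adipocyte markers 0 were higher and 5 lower (41.7% called), Car3 and Fabp4 being the most abundant. All 12 log2 fold changes were below 0, with a median of -1.99, and 11 had every Tnip1-/- library below every Tnip1+/+ library. Adipoq, close to 0 in Tnip1-/- replicate 2 alone, had an SE of 1.235 and was not called. The part of these cells in the fatty acid values was not tested. Tnip1-/- replicate 2, lowest in the adipocyte sum, was the highest of the 3 Tnip1-/- libraries for Elovl5 and Elovl6.

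Markers of further cell types are given beside the sterol genes. The sum of 11 epidermal keratinocyte markers was 22970, 24520 and 26750 CPM in Tnip1-/- libraries, against 15250, 9431 and 12310 CPM in Tnip1+/+ libraries, with 4 called higher and 2 lower. Krt14 set the separation, since without it the sums overlapped, at 12330, 14460 and 12800 CPM in Tnip1-/- libraries, against 12490, 8209 and 10350 CPM in Tnip1+/+ libraries. Mitosis genes summed to 827, 1099 and 1354 CPM in Tnip1-/- libraries, against 281, 231 and 767 CPM in Tnip1+/+ libraries, with 10 of 12 called higher. The full keratinocyte sum was lowest in Tnip1+/+ replicate 2 and highest in Tnip1-/- replicate 3. Skeletal muscle markers summed to 6999 to 9573 CPM in Tnip1-/- libraries, against 17430 to 29530 CPM in Tnip1+/+ libraries, with 11 of 12 lower, and Schwann cell markers to 138 to 179 CPM in Tnip1-/- libraries, against 246 to 321 CPM in Tnip1+/+ libraries, with 6 of 8 lower. Neutrophil markers summed to 7405 to 12090 CPM in Tnip1-/- libraries, against 29.0 to 165 CPM in Tnip1+/+ libraries. Most of that was S100a8 and S100a9, which keratinocytes also express and which the list of stressed keratinocytes holds too, and without them the sums were 94.1 to 165 CPM in Tnip1-/- libraries, against 11.6 to 19.0 CPM in Tnip1+/+ libraries. Ly6g had 9, 0 and 4 counts in Tnip1-/- libraries, against 0 in every Tnip1+/+ library. Macrophage markers summed to 2133 to 2668 CPM in Tnip1-/- libraries, against 1324 to 1988 CPM in Tnip1+/+ libraries, with 4 of 9 higher. Fibroblast markers summed to 6182 to 6844 CPM in Tnip1-/- libraries, against 6502 to 16510 CPM in Tnip1+/+ libraries, with 3 of 7 lower. The share called was 44.4% of macrophage and 42.9% of fibroblast markers, close to the 45.1% of all genes tested. It was 54.5% of epidermal keratinocyte markers, 83.3% of mitosis genes, 91.7% of skeletal muscle markers and 75% of Schwann cell markers. Keratins and alarmins of stressed keratinocytes summed to 36210 to 45440 CPM in Tnip1-/- libraries, against 841 to 1082 CPM in Tnip1+/+ libraries. The part of these differences in the sterol values was not tested.

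**Figure D5:**
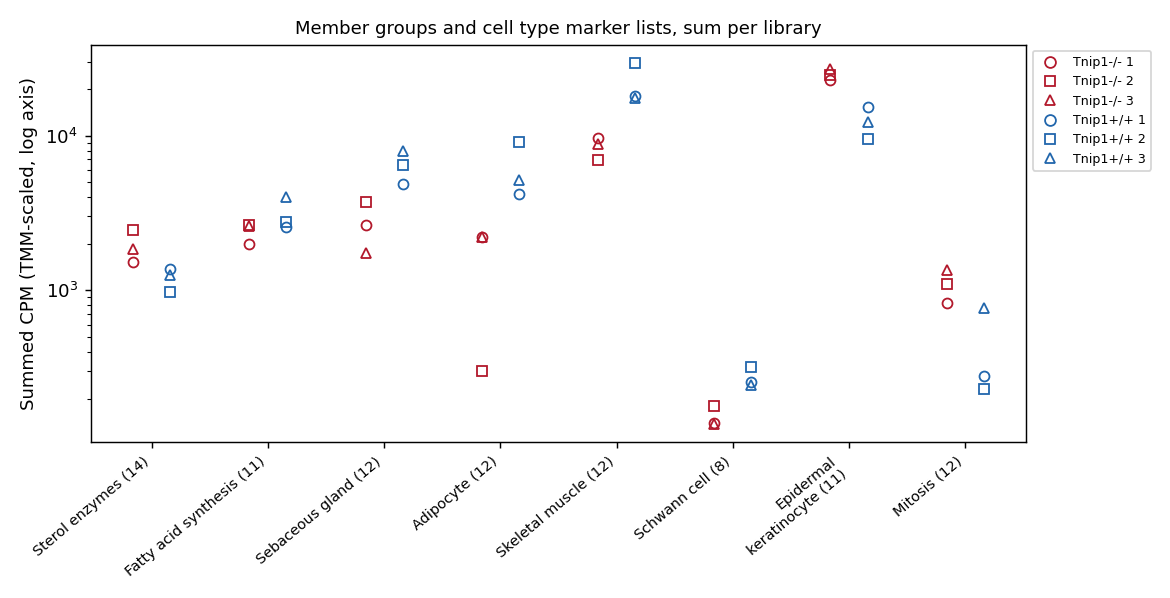
Summed CPM (log y axis) of the sterol enzymes, the fatty acid genes and 6 lists of cell type markers or mitosis genes in each Tnip1-/- library (left of each pair) and Tnip1+/+ library (right), with the number of genes in brackets. The adipocyte sum of Tnip1-/- replicate 2 (300 CPM) stands apart. The sterol, keratinocyte (through Krt14) and mitosis sums are higher in all 3 Tnip1-/- libraries. The sebaceous (through Scd1), muscle and Schwann cell sums are lower in all 3 Tnip1-/- libraries.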

How the data were processed

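Each of the 6 mouse skin libraries (3 Tnip1-/-, 3 Tnip1+/+) came as a file of counts per gene, deposited by the authors as whole numbers. Per the labels' protocols, stranded, paired-end libraries were made from total RNA after removal of ribosomal RNA. The submitters' processing notes name CASAVA 1.7, STAR, BWA, HTSeq, limma, R 3.2.3 and build mm9. The order of these tools, the strand option and the annotation were not stated there, so reads of antisense partners cannot be told apart. The 5 summary lines of each file (26.7% to 28.0% of Tnip1-/- and 27.6% to 30.3% of Tnip1+/+ counts) stayed out of library sizes and tests. Per the design text each library is a separate mouse, and replicates differed by far more than counting noise (30.8 to 124 in chi-square over degrees of freedom).

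The fit was made with edgeR 4.0.16 (R 4.3.3): TMM factors (0.898 to 1.095), filterByExpr, a quasi-likelihood model of genotype, and Benjamini-Hochberg adjustment over 16691 genes. The procedure was tested on simulated data in which few genes changed, as many up as down. Those data cannot test the scaling where a large share of genes differs, as here. Log2 fold changes are Tnip1-/- minus Tnip1+/+. A gene at 3 counts stands at 0.0900 to 0.157 CPM, below which it was not detectable; this covers counting error only. Alternatives were the DESeq2 1.42.0 Wald test, voom in limma 3.58.1, upper-quartile factors, library totals, robust dispersion, no filter and a stricter one, the replicate number as a block, each library left out in turn, and a fit without mitochondrial, haemoglobin, histone and muscle genes. Ratios of related genes were compared by exact permutation in SciPy 1.17.1.

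Exon lengths and overlaps came from the GENCODE annotation of GRCm38, a later build than that of the counts, and all 31 members matched. Promoters came from RefSeq. The members and lists were chosen with earlier results of these data known. Genes named are all members, Tnip1, up to 5 called genes of smallest p in each related list, family pairs, and of each marker list the 2 most abundant and those with 3 counts or fewer in a group. Adipoq and Col1a1 were named after their values were seen. Some genes that this rule names are not reported here.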

Additional observations from a re-analysis of the deposited data

How the results depend on the processing

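The medians of the 3 member groups and the sterol minus fatty acid difference kept their sign under all 15 alternatives. Idi1, Mvk, Fdps, Sqle, Stard4, Acacb, Elovl5 and Tnip1 were called under all 15. Leaving out 1 library lowered the calls over all genes from 7525 to between 5471 and 6866, so losses of calls were not particular to the members. The count of sterol enzymes called higher was 7; it was 4 with library totals alone, 4 with the replicate block and 4 to 9 when 1 library was left out, with 0 called lower. Sterol sensing and transport genes called higher numbered 3, and 1 with library totals alone and 1 to 3 with 1 library left out; those called lower numbered 1, and 0 with the replicate block and 0 to 1 with 1 library left out. Fatty acid genes called higher numbered 1, and 2 with DESeq2, 0 with library totals alone, 2 with the replicate block and 0 to 2 with 1 library left out; those called lower numbered 4, and 2 to 5 with 1 library left out. With library totals alone Acat2, Mvd, Tm7sf2, Srebf2, Scap and Scd2 missed the threshold, as did Tm7sf2 with upper-quartile factors and Fads2 with voom, while DESeq2 also called Pmvk, Fdft1, Lss, Acaca and Fads1. Library totals moved the median log2 fold change of all genes by -0.16, and 34.1% of all calls were then higher, against 49.6% with TMM factors. Hmgcs1 turned sign with upper-quartile factors (-0.03), with library totals (-0.10) and over libraries left out (-0.17 to 0.21), and Fasn over libraries left out (-0.053 to 0.67). The cause was not tested.

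No pairing of the mice by replicate number was seen. Same-numbered libraries had correlations of 0.01, -0.21 and 0.19 of their deviations from the group means. Libraries of different numbers had correlations of -0.29 to 0.26. With 3 libraries per group these values cannot exclude a pairing. With the replicate block 6465 genes were called, against 7525 without it, and of the members Acat2, Mvd, Tm7sf2, Srebf2, Insig2 and Elovl6 missed the threshold, while Acaca and Fads1 passed it. A gene at 3 counts or fewer, 0.0900 to 0.157 CPM by library, was not detectable at this depth, and every member lay above that level.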
